A study of Mus musculus with 48 samples.

Results

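Livers of mice given a faecal transplant of high-fat diet microbiota (HF) were compared with the livers of mice that received microbiota from donors on a ketogenic diet (KD), at zeitgeber time ZT12, the end of the light phase of a cycle of 12 hr light and 12 hr dark. The comparison rests on the 4 liver arrays labelled HF and ZT12 and the 4 liver arrays labelled KD and ZT12, which are 8 of the 48 arrays of the series. The other arrays hold liver and gut (labelled "Gut (DI)") at ZT0 and ZT12, from recipients of HF, KD or normal chow (NC) microbiota. All recipients ate a normal diet, so HF, KD and NC name the diet of the donor and not that of the animal whose liver was measured. The mice are described as age-matched male C57BL/6J, with no age stated in the labels. The protocols also mention germ-free mice and antibiotics, without saying to which arrays they apply. Arrays are named by donor diet and the number in the sample title: HF 7, 9, 10 and 13, KD 8, 10, 12 and 13, and NC 7, 8, 11 and 13 at ZT12. Nothing beyond those titles says that the arrays come from separate animals. The p-values rest on a spread per gene pooled over all 24 liver arrays in their 6 groups, at ZT0 and ZT12. That spread is between the samples within each group and may be technical.

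Gut bacteria reach the liver through the portal vein, by way of their metabolites, bile acids and cell wall products. The liver answers such signals in hepatocytes, through nuclear receptors such as PPARα, which drives fatty acid oxidation, and PPARγ, which drives fat storage in lipid droplets. It also answers in Kupffer cells, the resident macrophages, whose sensing of microbial products leads to interferon and to the interferon-stimulated genes. These encode antiviral helicases, guanylate-binding proteins (GBPs) and immunity-related GTPases that attack intracellular microbes, chemokines that recruit T cells, and the proteasome and peptide transport machinery of antigen presentation. The title of the series names PPARγ and the hepatic circadian clock, and the comparison of HF with KD recipients addresses whether microbiota from both of these donor diets leave different marks on a liver that itself receives normal food.

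No gene differed between HF and KD recipients past the threshold. Of 20702 genes tested with limma, 0 (0%) had an adjusted p under 0.05, and the lowest adjusted p was 1. At an unadjusted p under 0.05 there were 423 genes (2.04%), 236 higher in HF (1.14%) and 187 lower in HF (0.903%), where 5% would fall there with no difference at all. The histogram of unadjusted p-values therefore slopes upward, with fewer genes at low p than an even spread would give. The share at an unadjusted p under 0.05 depended on which arrays were fitted. It was 3.44% with only the 8 compared arrays and 3.77% with the 12 liver arrays of ZT12, both still under 5%. The median log2 fold change of HF over KD was 0.004, its median size 0.051, a fold of 1.036, and the median standard error 0.089. All values below are measured levels and differences of which none passed the threshold, and unadjusted p-values are given only to place a gene among the others. Another 11745 transcript clusters that carry no gene symbol in the files gave 0 past the threshold in the same model (0%), with 269 at an unadjusted p under 0.05 (2.29%).

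**Figure D1:**
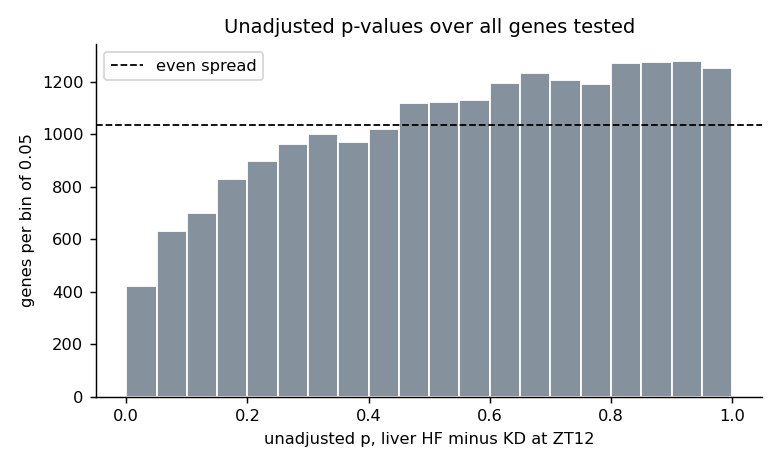
Number of genes per bin of unadjusted p (x axis, bin width 0.05) for HF minus KD in liver at ZT12 over 20702 genes, with the even spread of 1035.1 genes a bin as a dashed line. The lowest bin holds 423 genes and the highest 1252.

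The arrays had similar processed intensities: the median lay between 98.1 and 104.4 units, and pairwise correlations of log2 levels were between 0.9869 and 0.9916. These values do not measure RNA quality. Hepatocyte markers such as albumin and apolipoproteins averaged 13.15 to 13.22 on the log2 scale in HF livers and 13.17 to 13.22 in KD livers. Markers of intestinal epithelium, by contrast, averaged 6.82 to 7.04 in HF livers and 6.82 to 6.98 in KD livers. One array stands apart by its high genes, in a way that touches the results. KD replicate 10 had 46 genes more than 1 log2 unit above the median of the other KD arrays, against 5 to 16 such genes for each of the remaining 7 arrays. Of these 46 genes, 15 were interferon-stimulated genes of the list described next. The 15 are list members only, and other guanylate-binding protein genes were also among the 46. Results that rest on KD 10 are given with and without it. In the other direction, HF 13 had 22 genes more than 1 log2 unit below the median of the other HF arrays. Each of the remaining arrays had 6 to 16 such genes.

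Interferon-stimulated genes formed the group with the most negative median of the 39 gene lists examined. Of 39 measured members, 36 had a lower mean in HF than in KD livers, where 48.1% of all genes did, and the median log2 fold change was -0.328, against 0.004 over all genes. At an unadjusted p under 0.05, 17 members were lower in HF and 0 higher, beside a background of 0.903% of all genes lower. The members ranged between Cxcl10, a chemokine for activated T cells, at -0.89 ± 0.41 (log2 fold change ± SE), and Bst2, which tethers budding virus to the cell surface, at 0.17 ± 0.09. None passed the threshold (limma, adjusted p = 1 for each). A 1.85-fold lower mean of Cxcl10 in HF livers was thus not separable from the spread between arrays.

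The promoters of 4 of these genes, and of Gbp5, a guanylate-binding protein gene outside the list, are shown because they carry the sequence elements through which interferon acts: the interferon-stimulated response element (ISRE) and the gamma-activated site (GAS). Each runs 5′ to 3′ over 300 bases, from 250 bases before to 50 bases after the annotated start, as given by RefSeq on GRCm38.p6. Capitals mark every match, on either strand, to an ISRE-like motif, TTTC, any 2 bases and TTTC again, or to the GAS-like motif TTCNNNGAA.
Cxcl10, chr5:92348840-92349139, minus strand: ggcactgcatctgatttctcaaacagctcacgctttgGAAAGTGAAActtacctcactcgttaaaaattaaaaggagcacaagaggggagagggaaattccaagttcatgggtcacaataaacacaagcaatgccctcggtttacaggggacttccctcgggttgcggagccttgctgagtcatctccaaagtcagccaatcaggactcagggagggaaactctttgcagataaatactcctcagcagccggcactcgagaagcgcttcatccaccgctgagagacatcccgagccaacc
Gbp2, chr3:142620413-142620712, plus strand: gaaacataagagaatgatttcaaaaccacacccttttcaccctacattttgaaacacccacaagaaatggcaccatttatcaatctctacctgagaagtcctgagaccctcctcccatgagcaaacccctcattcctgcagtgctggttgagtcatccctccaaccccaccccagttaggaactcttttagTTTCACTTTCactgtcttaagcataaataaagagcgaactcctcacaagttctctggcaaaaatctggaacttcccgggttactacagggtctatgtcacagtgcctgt
Gbp5, chr3:142496684-142496983, plus strand: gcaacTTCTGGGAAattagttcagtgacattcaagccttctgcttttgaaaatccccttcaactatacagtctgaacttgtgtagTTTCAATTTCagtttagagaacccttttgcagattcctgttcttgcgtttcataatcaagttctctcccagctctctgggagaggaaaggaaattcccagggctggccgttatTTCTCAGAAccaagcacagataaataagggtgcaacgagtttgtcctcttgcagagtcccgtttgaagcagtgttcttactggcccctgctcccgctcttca
Ifit1, chr19:34640639-34640938, plus strand: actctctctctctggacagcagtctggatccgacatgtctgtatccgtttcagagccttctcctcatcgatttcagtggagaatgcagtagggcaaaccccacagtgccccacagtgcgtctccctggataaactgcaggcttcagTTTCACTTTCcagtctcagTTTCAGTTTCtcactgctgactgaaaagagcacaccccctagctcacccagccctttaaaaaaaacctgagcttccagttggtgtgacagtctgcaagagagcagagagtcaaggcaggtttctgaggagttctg
Irf1, chr11:53769764-53770063, plus strand: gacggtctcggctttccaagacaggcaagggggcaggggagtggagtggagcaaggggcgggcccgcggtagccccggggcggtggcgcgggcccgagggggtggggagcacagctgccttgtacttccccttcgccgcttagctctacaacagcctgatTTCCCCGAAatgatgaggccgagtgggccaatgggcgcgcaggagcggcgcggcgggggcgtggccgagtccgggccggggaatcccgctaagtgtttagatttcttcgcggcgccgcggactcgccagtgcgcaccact
Cxcl10 and Gbp2 hold 1 ISRE-like match each, Ifit1 holds 2, and Gbp5 holds 1 with 2 GAS-like matches. The Irf1 window, of the first of 2 annotated starts, holds 1 GAS-like match and no ISRE-like one. The window of the other Irf1 start, which is not printed, holds 0 matches to either motif. Of the 28 interferon-stimulated genes on the list with a RefSeq promoter, 17 (60.7%) held the ISRE-like letters and 8 (28.6%) the GAS-like letters. Of 27025 genes with a promoter in that table, 1079 (3.99%) and 2582 (9.55%) did. Among 17 PPARγ and lipid droplet genes, 1 (5.88%) held the ISRE-like and 0 the GAS-like letters. A match describes the letters only, and binding was not measured here.

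The guanylate-binding protein gene Gbp4 stood far higher in KD 10 than in the other livers. Gbp4 had 8.34, 7.83, 7.87 and 7.80 in HF 7, 9, 10 and 13, against 8.61, 10.31, 8.36 and 7.92 in KD 8, 10, 12 and 13 (log2 of intensity plus 16, as for all levels here). KD 10 was the highest array, 1.95 log2 units above the median of the other KD arrays. KD 8 and KD 12 also lay above every HF array, but HF 7 lay above KD 13, so the groups overlapped. The difference was -0.84 ± 0.29 (limma, unadjusted p = 0.0087, adjusted p = 1), and -0.34 without KD 10.

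Irf1, a transcription factor induced by interferon-γ, had 7.66, 7.96, 7.80 and 7.40 in HF livers, against 8.25, 9.40, 7.71 and 7.85 in KD livers. Only KD 8 and KD 10 lay above the whole HF group, and the difference of -0.60 ± 0.23 was -0.24 without KD 10. Cxcl10 had 6.91, 7.06, 6.88 and 6.71 in HF livers, against 7.20, 10.10, 6.86 and 6.95 in KD livers. Outside KD 10, where Cxcl10 stood 3.15 log2 units above the median of the other KD arrays, the groups overlapped and the difference was -0.11. Gbp5 had 7.13, 7.02, 7.13 and 7.10 in HF livers, against 7.49, 9.02, 7.37 and 7.13 in KD livers. At 2 decimals the groups met at 7.13, and its difference of -0.66 ± 0.23 was -0.23 without KD 10.

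**Figure D2:**
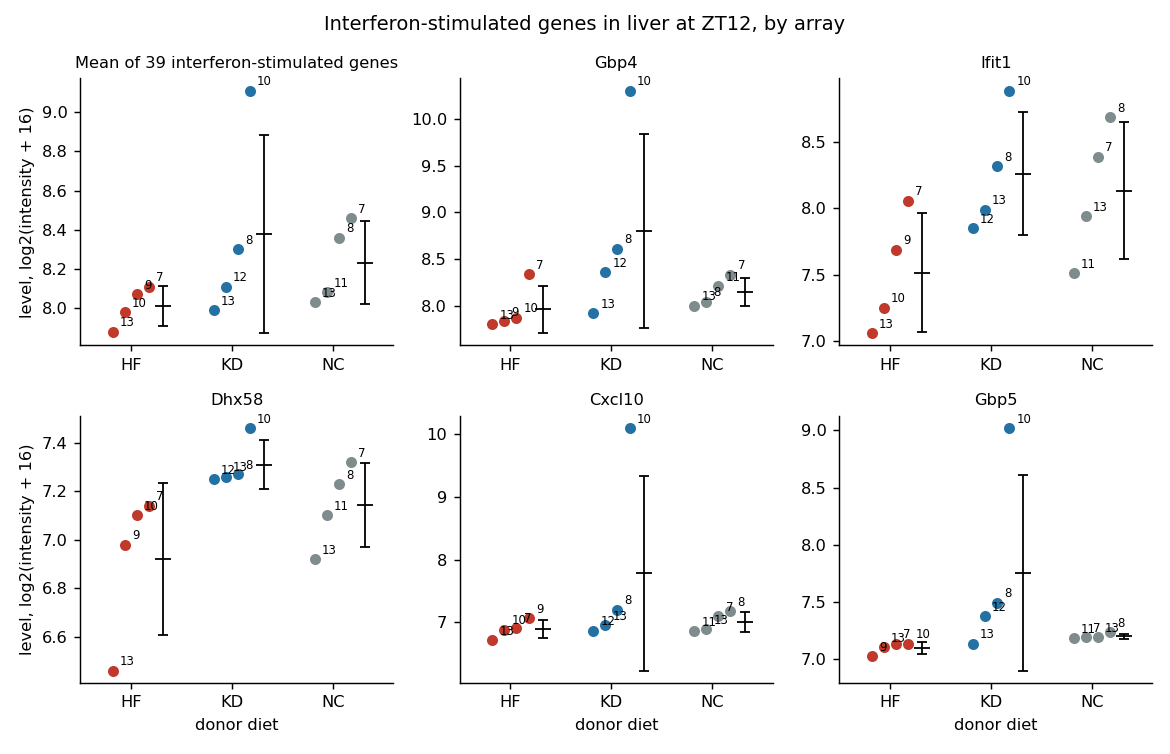
Level of interferon-stimulated genes in each ZT12 liver array (y axis, log2 of intensity plus 16) by donor diet, with the array number beside each point and the mean ± SD of 4 arrays at the right of each group. KD 10 is the highest array in all 6 panels, at 9.11 for the mean of 39 genes, against 7.88 to 8.11 in HF and 7.99 to 8.30 in the other KD arrays.

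Other interferon-related genes had differences that depended less on KD 10, though none passed the threshold. Dhx58, an RNA helicase that regulates the antiviral sensor RIG-I, had 7.14, 6.98, 7.10 and 6.46 in HF livers, against 7.27, 7.46, 7.25 and 7.26 in KD livers. All HF arrays lay below all KD arrays, with HF 13 the lowest of the group, and the difference of -0.39 ± 0.12 (unadjusted p = 0.0049, adjusted p = 1) was -0.34 without KD 10. Ddx58, which encodes RIG-I, was the other of 2 members without overlap, at -0.18 ± 0.10 and -0.14 without KD 10, where 1.17% of all genes had every HF array below every KD array. Ifit1, an antiviral protein that binds foreign RNA, had 8.06, 7.69, 7.25 and 7.06 in HF livers, against 8.32, 8.89, 7.85 and 7.99 in KD livers. HF 7 reached into the KD range, and the difference of -0.75 ± 0.28 was -0.54 without KD 10. Rnf213, a large interferon-inducible ubiquitin ligase outside the list, had 9.56, 9.53, 9.36 and 9.69 in HF livers, against 9.84, 10.06, 9.72 and 9.73 in KD livers. These groups did not overlap, at -0.31 ± 0.09, and -0.23 without KD 10.

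Across the members, KD 10 was the highest of the 12 ZT12 liver arrays for 30 of 39 and the highest of all 24 liver arrays for 23 of 39. The mean level over the members was 8.11, 8.07, 7.98 and 7.88 in HF 7, 9, 10 and 13, against 8.30, 9.11, 8.11 and 7.99 in KD 8, 10, 12 and 13. Without KD 10, 33 of 39 members were still lower in HF, where 49.8% of all genes were, but the median was -0.118 and 3 members were at an unadjusted p under 0.05. Of these, Dhx58 and Gbp4 were lower in HF, where 0.763% of all genes were lower at that p, and Bst2 was higher, at 0.21, where 1.03% were. The count of lower members, 17 with all arrays and 2 without KD 10, also depended on other arrays, at 6 without HF 13, 10 without HF 9 or without HF 10, and 22 without KD 13. The median was between -0.453, without KD 13, and -0.118.

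The NC recipients place the HF and KD levels. Their list mean was 8.46, 8.36, 8.08 and 8.03 in NC 7, 8, 11 and 13, which overlapped both other groups. Set side by side, and sharing the same arrays, the median log2 fold change of the members was -0.209 for HF minus NC and 0.090 for KD minus NC, where the median over all genes was 0.001 and -0.004. Ifit1 stood at -0.62 for HF minus NC and 0.13 for KD minus NC. Cxcl10 stood at -0.11 and 0.78, and Gbp4 at -0.18 and 0.66, in the same order. Without KD 10, the KD minus NC median was -0.071, with 30 of 39 members below 0 against 14 with all arrays. Cxcl10 then stood at 0.0 and Gbp4 at 0.15 for KD minus NC.

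Values of other cell types were set beside this group of genes. Markers of Kupffer cells and macrophages were lower in HF than in KD livers in 11 of 12 members, with a median of -0.087. Over all genes, 48.1% were lower in HF. The median of the markers was -0.005 without KD 10, -0.003 without KD 8 and -0.224 without KD 12. The members ranged between Marco, a scavenger receptor for bacteria, at -0.72 ± 0.30 and Cd68, a lysosomal macrophage protein, at 0.08 ± 0.20. Their mean was 8.07, 8.34, 8.18 and 8.34 in HF 7, 9, 10 and 13, against 8.72, 8.73, 7.96 and 8.25 in KD 8, 10, 12 and 13. KD 8 and KD 10 were high, and 6 of 12 members lay below 0 without KD 8. Marco was the 1 member lower at an unadjusted p under 0.05, where 0.903% of all genes were, with 0 without KD 10 or HF 10. The count was 4 without KD 12, where 2.35% of all genes were at that p in either direction. Marco had 8.01, 8.0, 7.76 and 8.01 in HF livers, against 8.52, 9.64, 7.95 and 8.54 in KD livers. KD 12 fell within the HF range, and the difference was -0.39 without KD 10. Markers of T and NK cells averaged 6.29 to 6.41 in HF livers and 6.31 to 6.43 in KD livers, with KD 10 at 6.36. Whether Kupffer cell content or state has a part in the interferon values was not tested, and in bulk tissue fewer cells of a type cannot be told apart from less RNA per cell.

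The codes of HF 9 and 10 and of all 4 KD livers also label a gut array of ZT12. Only the titles link these arrays, so an equal code may or may not mean the same mouse. Over the gut arrays, the interferon-stimulated members had a median of 0.025 for HF minus KD, and 19 of 39 were lower in HF, where 50% of all genes were. The list mean in gut was between 7.54 and 7.97 in HF and between 7.62 and 7.94 in KD recipients. The gut array with the code KD 10, the code of the highest liver array, had the lowest KD gut value at 7.62. Cxcl10 in that gut array was 6.65, inside the HF gut range of 6.33 to 6.74. The gut contrast had 0 genes past the threshold (limma, 0%), with 756 at an unadjusted p under 0.05 (3.65%).

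**Figure D3:**
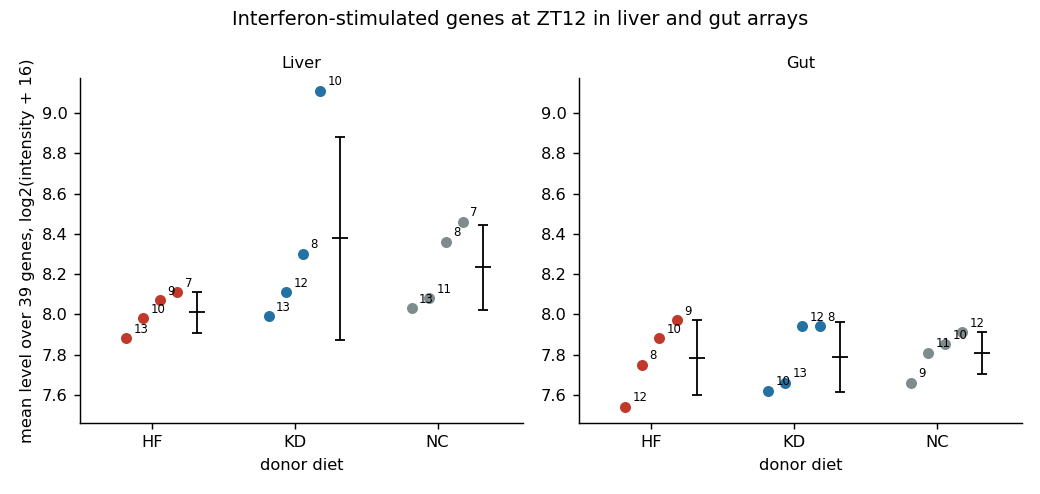
Mean level over 39 interferon-stimulated genes (y axis, log2 of intensity plus 16) per ZT12 array of liver and of gut, by donor diet, with the array number beside each point and the mean ± SD of 4 arrays. KD 10 is at 9.11 in liver and 7.62 in gut, and each tissue was normalised apart.

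Genes of PPARγ and lipid droplets lay mostly slightly above the KD level in HF livers. Of 20 members, 17 were higher in HF, where 51.9% of all genes were, and the median log2 fold change was 0.110. It was 0.074 without KD 10, with 14 members higher. At an unadjusted p under 0.05 there were 2 higher members, Cidec and Pnpla2, beside a background of 1.14%, and 0 lower. Without KD 10 this was Cidec alone, with 1.03% of all genes higher, and the median was 0.061 without KD 13. Cidec, which fuses lipid droplets into larger ones and is a PPARγ target in fatty liver, had 6.60, 6.75, 6.58 and 6.47 in HF livers, against 6.35, 6.12, 6.49 and 6.32 in KD livers. KD 12 lay just above HF 13, so the groups overlapped, and the difference was 0.28 ± 0.08 (limma, unadjusted p = 0.0013, adjusted p = 1), a fold of 1.21. Its difference was 0.21 without KD 10, which had the lowest level. Pnpla2, the lipase that starts the breakdown of stored triglyceride, differed by 0.24 ± 0.11.

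Pparg itself had 8.08, 7.65, 8.33 and 7.55 in HF livers, against 7.40, 7.46, 7.93 and 7.45 in KD livers. HF 7 and HF 10 were high, and KD 12 lay above the remaining HF arrays. The difference of 0.34 ± 0.27 had a 95% confidence interval between -0.21 and 0.90 and so spans both a lower and a higher level in HF. Plin2, the coat protein of hepatocyte lipid droplets, had 11.01, 11.18, 10.98 and 10.55 in HF livers, against 10.91, 10.75, 11.13 and 10.90 in KD livers. The difference was 0.00 ± 0.11, with an interval between -0.23 and 0.24. Fabp4, a fatty acid carrier of adipocytes and macrophages, differed by 0.04 ± 0.08. The list ended at Cideb, a droplet protein needed for lipoprotein assembly, with -0.06 ± 0.08, and at Fitm1, which supports droplet budding, with 0.36 ± 0.28.

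**Figure D4:**
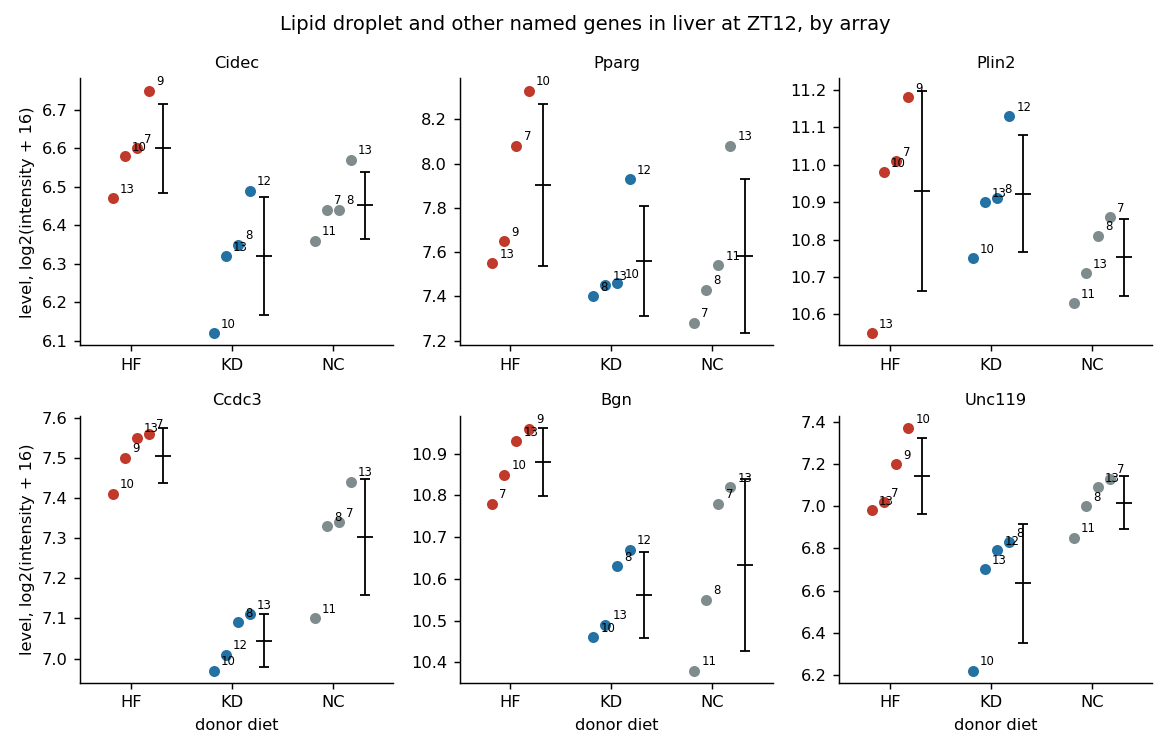
Level of lipid droplet genes (top row) and of 3 genes whose groups did not overlap (bottom row) in each ZT12 liver array (y axis, log2 of intensity plus 16) by donor diet, with the array number beside each point and the mean ± SD of 4 arrays. Cidec in KD 12 lies above HF 13, while Ccdc3, Bgn and Unc119 show no overlap between HF and KD.

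PPARα targets carried 3 of the 4 genes whose difference exceeded 1 log2 unit, and these varied between arrays of one group as much as between groups. Cyp4a14, a fatty acid ω-hydroxylase, had 8.37, 9.60, 10.30 and 5.95 in HF livers, against 6.19, 8.51, 6.60 and 8.52 in KD livers. HF 13 was the lowest of these 8 arrays, and the difference of 1.10 ± 1.10 was as large as its error. Cyp4a31, a related hydroxylase, had 9.50, 10.06, 9.93 and 7.34 in HF livers, against 7.58, 8.94, 7.62 and 8.67 in KD livers, a difference of 1.0 ± 0.61. Acot3, a peroxisomal acyl-CoA thioesterase, had 8.45, 9.50, 8.83 and 6.07 in HF livers, against 6.57, 6.61, 7.06 and 7.10 in KD livers. Here 3 HF arrays lay above every KD array and HF 13 below them all, and the difference was 1.38 ± 0.63. Rnase2a, a ribonuclease of the eosinophil family, was the fourth at -1.17 ± 0.67, and these 4 were named after their values were seen.

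Over the 27 PPARα and fatty acid oxidation genes, 22 were higher in HF, where 51.9% of all genes were, with a median of 0.076. At an unadjusted p under 0.05 there were 0 members in either direction by limma. Without HF 13, the array with the lowest list mean, 27 of 27 were higher in HF and the median was 0.171. Then 5 were at an unadjusted p under 0.05, where 2.34% of all genes were in either direction. No overlap was seen for 8, a condition met more easily with 1 array fewer, and its share over all genes is not given here. Without HF 9 or HF 10, 17 were higher. Without KD 13 there was 1 at that p, where 2.36% of all genes were. The mean of the list was 10.15, 10.42, 10.31 and 9.47 in HF 7, 9, 10 and 13, against 9.69, 9.86, 9.81 and 10.06 in KD 8, 10, 12 and 13, so HF 13 lay below and the other HF arrays above all KD arrays. The acyl-CoA thioesterases Acot1 and Acot2 stood at 0.66 ± 0.42 and 0.57 ± 0.37, while mitochondrial β-oxidation enzymes stayed close to 0, with Cpt2 at -0.06 ± 0.10 and Acadm at 0.07 ± 0.12. Lipogenesis genes had 14 of 20 members lower in HF with a median of -0.050. It was 0.001 without KD 12 and -0.119 without HF 13. Srebf1, the transcription factor of fatty acid synthesis, stood at -0.39 ± 0.22 and Acacb, which makes the malonyl-CoA that restrains fatty acid oxidation, at 0.19 ± 0.21.

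Clock genes showed no common direction. The list holds both activators and repressors, which need not move together, so its median cannot tell whether the clock was shifted. Of 22 members, 14 were higher in HF with a median of 0.014, close to the 0.004 over all genes, and 0 were at an unadjusted p under 0.05 by limma. Arntl, which encodes the activator BMAL1, had 6.09, 6.30, 6.15 and 5.83 in HF livers, against 5.06, 6.18, 5.51 and 6.29 in KD livers. KD 8 and KD 12 were low while KD 10 and KD 13 fell within the HF range, and the difference of 0.33 ± 0.19 was the upper end of the list. Arntl was dim, with each of these levels below the median of its array. The sign of the Arntl value turned, to -0.10, in the fit with a block for the replicate number. Nr1d1, encoding the repressor REV-ERBα, was the lower end at -0.18 ± 0.27. The output factor Dbp stood at 0.01 ± 0.13 and the repressor Per2 at -0.10 ± 0.18. Their 95% intervals were -0.27 to 0.28 for Dbp and -0.47 to 0.27 for Per2.

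Markers of stellate cells and fibroblasts, the matrix-forming cells of the liver, were higher in HF in 12 of 12 members, where 51.9% of all genes were. The median was 0.158, with a range over single omitted arrays of 0.122 to 0.206. At an unadjusted p under 0.05 there was 1 higher member, Lrat, beside a background of 1.14% of all genes higher. No overlap was shown by 2 members, Lrat and Col1a2, where 1.1% of all genes had every HF array above every KD array. The count at that p was 0 without HF 10, HF 13, KD 8 or KD 13. It was 4 without KD 12, where 2.35% of all genes were at that p in either direction. Lrat, which stores retinol as esters in stellate cells, had 9.31, 9.10, 9.23 and 9.37 in HF livers, against 8.58, 8.97, 9.0 and 8.64 in KD livers, a difference of 0.46 ± 0.21. Col1a2, a chain of type I collagen, stood at 0.23 ± 0.12, and Acta2, the smooth muscle actin of activated stellate cells, at 0.06 ± 0.15. The mean over the markers was 8.26, 8.37, 8.31 and 8.43 in HF 7, 9, 10 and 13, against 8.08, 8.18, 8.25 and 8.14 in KD 8, 10, 12 and 13. These groups did not overlap, with HF 7 and KD 12 next to each other. NC livers had 8.17, 8.15, 8.22 and 8.43, the last within the HF range and the others within the KD range. At ZT0, in other arrays, 9 of 12 markers were lower in HF with a median of -0.023, and 5 of 12 with a median of 0.022 without KD 7 of ZT0.

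Biglycan (Bgn), a small proteoglycan of the extracellular matrix that is not on that list, had 10.78, 10.96, 10.85 and 10.93 in HF livers, against 10.63, 10.46, 10.67 and 10.49 in KD livers. The groups did not overlap, at 0.32 ± 0.10 (unadjusted p = 0.003, adjusted p = 1). It was 1 of 38 genes at an unadjusted p under 0.01 with no overlap between the groups, a selection by size and separation that makes their values a description. The gene with the lowest unadjusted p among those named was Ccdc3, a secreted coiled-coil protein, with 7.56, 7.5, 7.41 and 7.55 in HF livers, against 7.09, 6.97, 7.01 and 7.11 in KD livers. The groups lay apart by more than the spread of either, and NC livers had 7.34, 7.33, 7.10 and 7.44 in between and into both. The difference was 0.46 ± 0.10 (limma, unadjusted p = 0.00012, adjusted p = 1), a fold of 1.38, and 0.44 without KD 10.

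Unc119, a chaperone of myristoylated signalling proteins, had 7.02, 7.20, 7.37 and 6.98 in HF livers, against 6.83, 6.22, 6.79 and 6.70 in KD livers. KD 10 was the low array, and the difference of 0.51 ± 0.13 was 0.37 without it. Trp53i11, a p53-inducible gene, stood at 0.38 ± 0.11, and Cd209f, a C-type lectin at 0.38 ± 0.13. The other genes higher in HF by that selection were Calcoco1, an autophagy receptor, at 0.28 ± 0.10, and Triobp, an actin-bundling protein, at 0.26 ± 0.09. Best3, a chloride channel of the bestrophin family, stood at 0.25 ± 0.08 and E2f3, a transcription factor of the cell cycle, at 0.24 ± 0.08. Cd209f was dim, with a mean intensity of 23.8 units in HF livers and 14.6 units in KD livers.

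Genes lower in HF with no overlap included Hpf1, the cofactor that directs PARP enzymes to serine residues at DNA breaks. It had 7.5, 7.45, 7.49 and 7.21 in HF livers, against 7.77, 7.82, 7.75 and 7.74 in KD livers, with the KD arrays close together and HF 13 the lowest. The difference was -0.36 ± 0.09 (unadjusted p = 0.0004, adjusted p = 1). Jmjd1c, a JmjC-domain chromatin protein, stood at -0.26 ± 0.07, Psd4, an exchange factor for the GTPase ARF6, at -0.24 ± 0.07, and Tmem121, a membrane protein, at -0.22 ± 0.07. Cst6, a cysteine protease inhibitor, stood at -0.28 ± 0.10 and Fchsd1, an F-BAR protein of membrane and actin dynamics, at -0.19 ± 0.05. Amdhd1, an enzyme of histidine breakdown, had 9.83, 9.81, 9.85 and 9.79 in HF livers, against 10.21, 10.09, 9.91 and 9.95 in KD livers. The KD arrays spread more widely than the HF arrays, and the difference was -0.22 ± 0.08.

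Amino acid catabolism genes, to which Amdhd1 does not belong as a listed member, were lower in HF in 26 of 32 members with a median of -0.065. Gldc, of the glycine cleavage system, stood at -0.20 ± 0.09 and was the 1 member at an unadjusted p under 0.05, where 0.903% of all genes were lower, and 0 were at that p without KD 10 by limma. Agxt, which detoxifies glyoxylate, stood at -0.25 ± 0.15 and Csad, which makes taurine, at 0.71 ± 0.48. Unfolded protein and integrated stress genes were lower in HF in 22 of 27 members, with a median of -0.094. It was -0.039 with 18 members without KD 10, the highest array of the list at 9.39 against 9.01 to 9.25 in HF livers and 9.09 to 9.26 in the other KD livers. Lower members at an unadjusted p under 0.05 numbered 2: Dnajb11, a chaperone of the endoplasmic reticulum, at -0.26 ± 0.11, and Calr, which folds glycoproteins there, at -0.15 ± 0.07. The background was 0.903%, and without KD 10 the count was 0 by limma. Manf, a secreted stress factor, was the lower end at -0.29 ± 0.15 and Asns, which makes asparagine, the upper end at 0.24 ± 0.30.

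**Figure D5:**
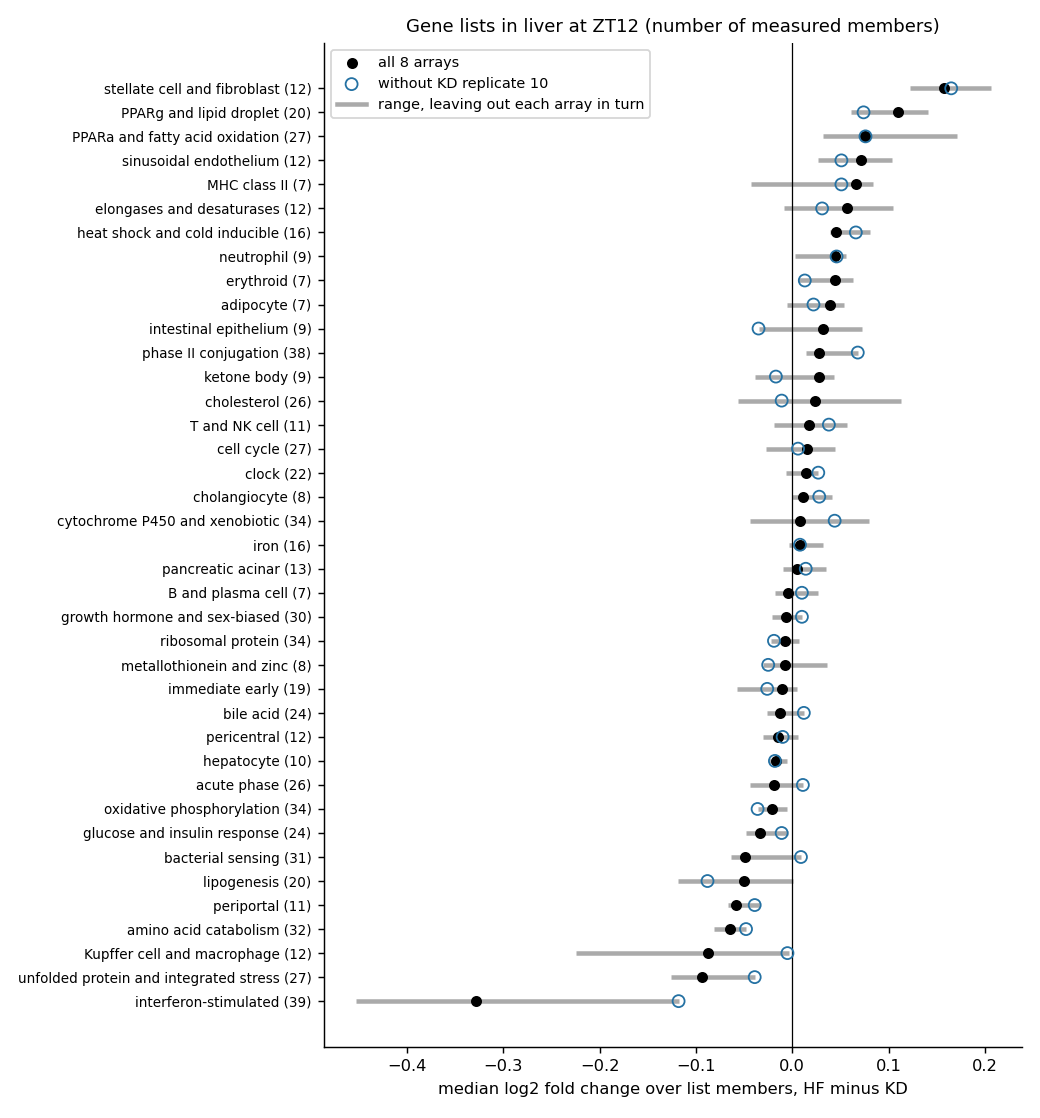
Median log2 fold change of HF minus KD in liver at ZT12 (x axis) for each of 39 gene lists, with the number of measured members in brackets, where filled points use all 8 arrays, open circles leave out KD 10 and grey bars span the medians when each array is left out in turn. The interferon-stimulated list lies at -0.328 and its open circle at -0.118, and the stellate cell list has the highest median at 0.158.

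Other lists had smaller shifts. Ribosomal proteins stood at -0.008 and oxidative phosphorylation at -0.021, with 23 of 34 members of the second list lower in HF. Bile acid genes stood at -0.013, cytochrome P450 and xenobiotic genes at 0.008, acute phase genes at -0.019 and cholesterol genes at 0.024. Bacterial sensing genes stood at -0.049, and at 0.009 without KD 10. Sinusoidal endothelium stood at 0.071, with 9 of 12 members higher in HF. Lyve1, a hyaluronan receptor of those cells, showed no overlap at 0.32 ± 0.16, where 1.1% of all genes had every HF array above every KD array. Large single values in these lists came with large errors. Socs2, a target of growth hormone, stood at 0.85 ± 0.66, with KD 10 low at 7.03 against 8.69 to 8.79 in the other KD livers and 8.32 to 9.58 in HF livers. Bcl6, a repressor linked to fasting and growth hormone, stood at -0.61 ± 0.61, with HF 9, KD 8 and KD 10 at 9.74, 9.93 and 9.61 and the other arrays between 6.97 and 7.89.

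The earlier time point offers the same donor contrast in 8 other liver arrays, of which KD 7 stands apart, with an acute phase mean of 12.19, against 10.19 to 10.80 in HF and 10.30 to 10.48 in the other KD livers of ZT0. At ZT0 the contrast also had 0 genes past the threshold (limma, 0%), with 681 at an unadjusted p under 0.05 (3.29%). The test of a change in the HF minus KD difference between ZT12 and ZT0 gave 0 genes (0%), with 490 at an unadjusted p under 0.05 (2.37%) and a lowest adjusted p of 0.851, that of Ccdc3. Ccdc3 had 7.39, 7.0, 7.30 and 7.09 in HF and 7.43, 7.24, 7.58 and 7.53 in KD livers at ZT0, a difference of -0.25 ± 0.10, opposite in sign to that at ZT12. Its change was 0.71 ± 0.14 (unadjusted p = 4.1e-05). Without KD 7 of ZT0 it was 0.68 ± 0.15, and the lowest adjusted p over all genes was 1. Cidec had 6.09, 6.10, 6.13 and 6.15 in HF and 6.19, 6.21, 6.09 and 6.40 in KD livers at ZT0, a difference of -0.10 ± 0.08 and a change of 0.39 ± 0.11 (unadjusted p = 0.0017, adjusted p = 1). The groups overlapped for Cidec and Ccdc3 at that time. Amdhd1 turned as well, with 0.16 ± 0.08 at ZT0 and a change of -0.38 ± 0.11.

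Interferon-stimulated genes were lower in HF at ZT0 in 34 of 39 members, where 51.7% of all genes were, with a median of -0.129 and 1 at an unadjusted p under 0.05 beside a background of 2.11% lower. Without KD 7 of ZT0 the median was -0.170, with 32 below 0. Their mean per array was between 7.94 and 8.14 in HF and between 8.03 and 8.32 in KD livers at ZT0, so the groups overlapped. Gbp4 stood at -0.21 ± 0.29 at that time, and at -0.35 without KD 7. Kupffer cell and macrophage markers were lower in HF at ZT0 in 12 of 12 members with a median of -0.344, and 3 were at an unadjusted p under 0.05. KD 7 had the highest mean of these markers, 9.05, against 8.0 to 8.5 in HF and 8.34 to 8.70 in the other KD livers. Without it the median was -0.212, with 11 of 12 below 0, and 0 were at that p by limma, where 1.91% of all genes were lower. Unfolded protein and integrated stress genes were lower in 24 of 27 with a median of -0.119. The PPARγ and lipid droplet list had 13 of 20 members higher in HF at ZT0, with a median of 0.026, and 9 with a median of -0.012 without KD 7.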

How the data were processed

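RNA of 48 samples was measured on expression arrays. The deposited value table holds linear intensity for 35556 transcript clusters, which the submitters' processing notes credit to PLIER. No version, genome build or scaling between arrays is stated in the sources used here. The authors' comparison tables pair 23811 clusters (67.0%) with a symbol, and per the file headers also hold a p-value and a ratio of group means against NC recipients, which are not reported here. Symbols were updated through RefSeq by accession (22726), current symbol (688) or older symbol (108), and 289 stayed as deposited. Clusters without a symbol were fitted apart.

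From these values, log2(intensity + 16) was quantile normalised within the 24 liver arrays, and the 24 gut arrays apart. The cluster with the highest mean stood for a gene. A linear model over the 6 liver groups, with 18 residual degrees of freedom, gave HF minus KD (limma 3.58.1, R 4.3.3, moderated by eBayes after lmFit). Tests were two-sided, with Benjamini-Hochberg adjustment over 20702 genes and a threshold of 0.05. The number of arrays limits the precision. Groups were taken from sample titles, and no batch is named in the labels. The fit was tested on simulated data. Tables were prepared in Python 3.11.15 with pandas 2.3.3.

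Named were the 10 highest and 10 lowest differences among genes at unadjusted p under 0.01 whose HF and KD arrays did not overlap (predicted genes, small RNAs, receptor families and antigen receptor segments passed over), up to 3 members of each of 39 lists at that p, 8 fixed clock and PPARγ examples, and ends of list ranges. Some genes that this rule names are not reported here. Other list members were named where the account of a list needed them. The members and lists were chosen with earlier results of these data known. Lists are described by counts and medians without a test. Alternatives were no quantile step, median centring, an offset of 1, no dim genes, only the compared arrays, an intensity trend, array weights, a replicate block and leaving out each array. The list counts without each array, KD minus NC without KD 10 and the ZT0 values without KD 7 were added after seeing the data.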

Additional observations from a re-analysis of the deposited data

Results flagged for a closer look

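Among 60 groups of 4 arrays of named genes and 78 groups of list means, 9 had 1 array far from the other arrays of its group, where chance gives about 1 in 20. The array KD 10 accounted for 3 of them: Dhx58 at 7.46, against 7.25 to 7.27 in the other KD livers, the mean of the acute phase list at 10.63, against 10.38 to 10.39, and the mean of the intestinal epithelium list at 6.82, against 6.96 to 6.98. In KD 12, Pparg was at 7.93, against 7.40 to 7.46 in the other KD livers, Calcoco1 at 9.31, against 9.36 to 9.37, and the mean of the lipogenesis list at 11.56, against 11.15 to 11.21. In KD 8 the neutrophil list averaged 6.37, against 6.31 to 6.32. In HF 7, Gbp4 was at 8.34, against 7.80 to 7.87 in the other HF livers, and in HF 9 the B and plasma cell list averaged 6.29, against 6.20 to 6.21.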

How the results depend on the processing

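The count of genes past the threshold was 0 in each setting run, for the HF minus KD difference by limma, and the share of genes at an unadjusted p under 0.05 was between 1.36% (each array centred on its median) and 3.88% (array weights). As counts these were 281 and 803, with 712 for only the 8 compared arrays and 781 for the 12 ZT12 arrays, against 423. The lowest adjusted p was 0.189 with the replicate block, 0.222 with array weights, 0.305 with only the 8 compared arrays and 0.348 with the 12 ZT12 arrays. Replicate numbers 10 and 13 occur in both groups, but the deviations of these arrays correlated at 0.068 and -0.047 across genes, so the numbers were not taken as pairs. With the replicate block Arntl stood at -0.10 and Per2 at 0.10, against 0.33 and -0.10 without it. Dbp, at 0.01, was -0.01 with median centring and between -0.12 and 0.1 when leaving out single arrays. Plin2, whose difference rounded to none, had no sign to keep, and by its levels the HF mean lay below the KD mean without HF 9. The remaining named genes kept their sign in all settings run. The median of the neutrophil list, 0.044, was 0.003 without KD 13. Leaving out 1 array turned the sign of 22 of the 39 list medians. The cause was not tested. With 4 arrays per group, the median standard error of 0.089 limits what can be told apart from 0.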

Other observations

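Genes that stood high in KD 10 outside the interferon list, named after their values were seen, included Cd274, which encodes the checkpoint ligand PD-L1, 1.80 log2 units above the median of the other KD livers, and Serpina3f, a protease inhibitor, 2.15 units above it. The metallothionein Mt2 stood 2.10 units, the insulin-like growth factor carrier Igfbp1 1.46 units, and the acute phase genes Saa3 and Lcn2 1.49 and 1.41 units above it in the same array. The guanylate-binding protein genes Gbp5, Gbp9, Gbp2b and Gbp8, also outside the list, stood 1.65, 1.44, 1.24 and 1.13 units above it. The count of list members high in KD 10 therefore does not hold every interferon-related gene. Across groups, the acute phase list had a median of -0.019 for HF minus KD, with 17 of 26 members lower in HF, and 0.011 without KD 10.

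Heat shock and cold-inducible genes were higher in HF than in KD livers in 12 of 16 members, with a median of 0.045. Hspb1, a small heat shock protein, stood at 0.25, the upper end of that list. It showed no overlap between the groups, where 1.1% of all genes had every HF array above every KD array. Elongases and desaturases had a median of 0.057, with 8 of 12 members higher in HF and Elovl3 the upper end at 0.24. That median was -0.009 without HF 9.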
